A study of Mus musculus with 9 samples.

Results

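The 8 genes described here encode the coat, scaffold and neck proteins of caveolae and the protein of the fenestral diaphragm. They were chosen by gene symbol (Cav1, Cav2, Cavin1, Cavin2, Cavin3, Ehd2, Pacsin2 and Plvap), and all 8 had a row among the 31232 genes listed. Each had enough reads to be tested. They were measured in bEnd.3, an endothelial cell line from mouse brain that carries the polyoma virus middle T antigen as its immortalising gene. The cells grew on coverslips and were put under flow in a parallel-plate chamber. Vortex cells were exposed to a vortex at 0.5 to 2 dyne/cm2, which the submitters use as a model of the late, enlarged intracranial aneurysm. HSS cells were under laminar flow of 20 dyne/cm2, which stands for early aneurysm at a bifurcation of a vessel. PSS cells were under laminar flow of 10 dyne/cm2, the physiological condition. Each group had 3 libraries of polyadenylated RNA from this 1 cell line. Whether the libraries came from separate cultures is not stated, and the RNA is described as mixed, so p-values measure the spread between these libraries, which may be technical.

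Caveolae are flask-shaped pits of the plasma membrane that are abundant in most endothelial cells and sparse in the endothelium of the blood-brain barrier. Caveolins insert into the inner membrane leaflet, cavins form a coat around them, EHD2 and PACSIN2 shape and hold the neck, and the pits flatten when membrane tension rises. PLVAP builds the thin diaphragms across the neck of caveolae and across fenestrae, and it is a marker of leaky, non-barrier endothelium that mature brain vessels lose.

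Libraries held 17407217 to 22965802 counts. CPM below are counts divided by the scaled total of their library. Across genes, log2 CPM correlated (Pearson) at 0.852 to 0.962 within Vortex, 0.992 to 0.993 within HSS and 0.977 to 0.992 within PSS. Genes are not independent replicates. Vortex replicate 2 stood apart: relative to the PSS mean its median log2 difference was -1.41 over the lowest eighth of genes by GC content and 0.90 over the highest, where the other 8 libraries lay between -0.45 and 0.15 and between -0.21 and 0.27. It correlated at 0.852 with Vortex replicate 1, at 0.916 with Vortex replicate 3, at 0.877 to 0.879 with HSS and at 0.913 to 0.916 with PSS libraries. Whether this library is what its label says was not tested, so Vortex values that rest on it are those of a library in doubt. Summed CPM of 11 endothelial markers was 759, 1181 and 6386 in the lowest, middle and highest Vortex library, 378 to 383 in HSS and 2292 to 2913 in PSS. Of the markers that define the cell type, Pecam1 had 28, 30567 and 1116 counts in Vortex, 23 to 32 in HSS and 254 to 300 in PSS. Erg had 5 to 15 in HSS and 1243 to 1479 in PSS, and Tie1 3658 to 4288 and 6672 to 9552. Cldn5, a claudin that seals brain vessels, had 13, 7791 and 62 counts in Vortex, 0 to 2 in HSS and 1110 to 1202 in PSS. Of the other barrier markers, Slc2a1 and Abcb1a were higher in HSS than in PSS libraries, Abcg2 was lower, like Cldn5, and Mfsd2a overlapped. In HSS and PSS, Slc2a1 had 2467 to 2869 and 1435 to 1789 counts, and Abcb1a 135 to 184 and 30 to 59. Abcg2 had 3522 to 4142 and 4531 to 6349, and Mfsd2a 303 to 347 and 303 to 373. The same sum over 5 fibroblast markers was 56.2, 542 and 633 in the lowest, middle and highest Vortex library. In HSS it was 318 to 331 and in PSS 271 to 339.8. Over 8 smooth muscle and pericyte markers it was 8.10, 27.2 and 59.1 in Vortex. For these it was 38.3 to 40.9 in HSS and 20.7 to 26.0 in PSS. Vortex replicate 2 was the lowest Vortex library in both sums, with 8 Dcn counts against 648 and 910 in replicates 1 and 3. Over 4 adipocyte markers, a cell type rich in caveolae, the summed CPM was 137 to 224 in Vortex and 34.1 to 36.8 in HSS. In PSS it was 49.3 to 77.6, and almost all of the sum was Fabp4, which endothelial cells also make. Over 5 macrophage markers it was 22.1 to 56.0, 22.1 to 25.4 and 6.82 to 7.72, over 5 epithelial markers 6.48 to 20.6, 4.43 to 5.10 and 7.02 to 7.20, and over the 5 brain barrier markers analysed 606 to 868, 356 to 365 and 389 to 437, each in Vortex, HSS and PSS. Every gene listed had at least 1 count in some library, so a marker at 0 throughout would have no row. Of the 6 brain barrier markers chosen, Slco1c1 had no row. Among the markers with a row, Ptprc (leukocytes) had at most 1 count per library, Epcam (epithelium) 2, Adipoq (adipocytes) 4 and Tagln (smooth muscle) 5. Other markers of these lists had more. The macrophage markers Cd68 and Csf1r had 78 to 741 and 28 to 367 counts per library. Krt18 (epithelial) had 37 to 347, and Pdgfrb (smooth muscle and pericyte) 96 to 956. The part of other cell types in the results was not tested. In these bulk samples fewer cells of a type and less RNA per cell cannot be told apart.

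Cav1 was the most abundant of the 8 transcripts in every library except Vortex replicate 2, where Plvap stood at 1.54 times its FPKM. On the authors' FPKM scale, which divides by gene length so that genes can be compared, the level of Cav1 was 369.7 ± 72.0 in Vortex, 369 ± 1.94 in HSS, and 373 ± 63.3 in the PSS libraries (SD, n = 3 each). Below it the order differed by group. In HSS the mean FPKM levels were 133 for Cavin1, 116 for Cav2, 101 for Ehd2, 39.6 for Cavin2, 38.3 for Pacsin2, 22.6 for Plvap and 16.8 for Cavin3. The neighbours Cavin2 and Pacsin2 lay closer together than the sum of their SDs (1.42 and 0.962). In PSS the order was Plvap (151), Cavin2 (121), Cav2 (106), Cavin1 (95.9), Ehd2 (77.3), Pacsin2 (28.9) and Cavin3 (18.9). There each of Plvap, Cavin2, Cav2 and Cavin1 differed from the next gene by less than the sum of their SDs (8.83 to 24.4 FPKM). In Vortex the order was Plvap (209.6), Cavin1 (165), Cav2 (115), Ehd2 (74.6), Cavin2 (45.7), Pacsin2 (31.8) and Cavin3 (27.9), with SDs of 6.42 to 225, and no neighbours in that order, Cav1 and Plvap included, differed by more than the sum of their SDs.

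**Figure D1:**
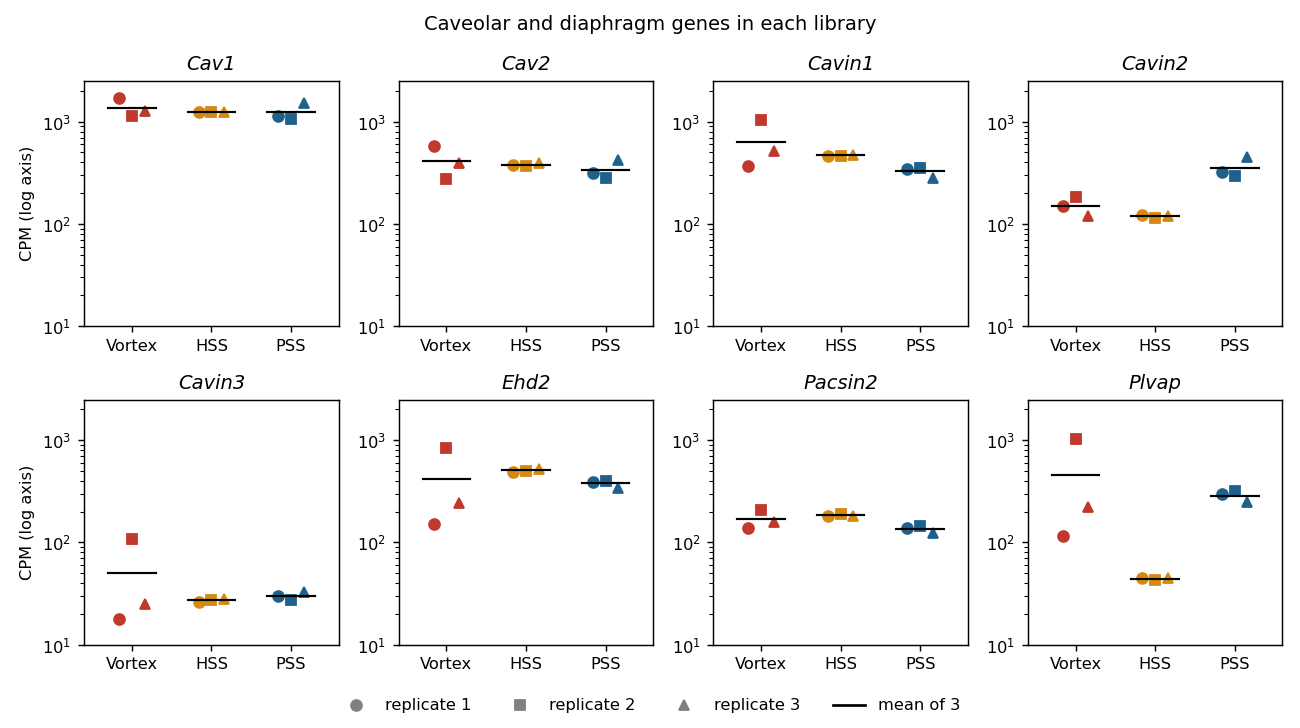
CPM of each gene in each library on a log axis, by group, with 1 symbol per replicate number and a bar at the mean of 3. HSS libraries lie close together in every panel, Vortex replicate 2 (square) is the highest Vortex library for all genes except Cav1 and Cav2, and Cavin2 and Plvap are the genes whose HSS libraries lie far below PSS.

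The comparisons of HSS and of Vortex with PSS ask how a change of flow away from the physiological one affects these genes, and share the PSS libraries. In HSS, Cavin2 fell to 0.334 times and Plvap to 0.154 times the PSS level, while Cav1 averaged 1244 CPM in HSS and 1230.4 CPM in PSS. Calls and adjusted p-values are those of the edgeR quasi-likelihood test, adjusted by Benjamini-Hochberg over all 15774 genes tested, unless another test is named. By it 2 of the 8 genes fell in HSS against PSS and 0 rose. Over all genes 7.87% were called in this comparison, 4.18% higher and 3.70% lower. These shares, like those of the other comparisons, are of edgeR's adjusted calls, not of unadjusted or DESeq2 counts. At an unadjusted p under 0.05 edgeR gave 1 of the 8 higher (Pacsin2) and 2 lower, and the DESeq2 Wald test called 0 higher and 2 lower. In Vortex against PSS 1 gene fell (Cavin2) and 0 rose, against a background of 13.4% called, 8.33% higher and 5.03% lower. Unadjusted, edgeR gave 1 higher (Cavin1) and 1 lower, and DESeq2 called the same numbers. In Vortex against HSS 1 gene rose (Plvap) and 0 fell, against 7.04% called, 4.37% higher and 2.67% lower, and the unadjusted and DESeq2 counts were the same. Median log2 fold changes of the 8 genes were 0.30, 0.088 and 0.25 for Vortex against PSS, HSS against PSS and Vortex against HSS, beside 0.11, -0.0049 and 0.10 over all genes tested. The edgeR fit with TMM scaling and limma on the authors' FPKM divided the calls over all genes differently. For Vortex against PSS limma on log2(FPKM + 1) gave 743 higher and 1484 lower, where edgeR gave 1314 and 793. For Vortex against HSS limma gave 396 and 790, and edgeR 690 and 421. The runs differ in test and pseudocount as well as in scaling, and the part of each was not tested.

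Vortex replicate 2 enters the spread of each comparison, so the 8 genes were also fitted without it. In HSS against PSS 2 genes were then higher (Cavin1 and Pacsin2) and 2 lower, where 29.1% of all genes were called, 15.4% higher and 13.7% lower. In Vortex against PSS 3 were lower (Cavin2, Ehd2 and Plvap) and 0 higher, where unadjusted p-values gave 2 higher and 4 lower and the background was 36.3%, 19.7% higher and 16.6% lower. In Vortex against HSS 1 was higher (Plvap) and 1 lower (Ehd2), where the background was 23.9%, 13.9% higher and 10.0% lower.

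**Figure D2:**
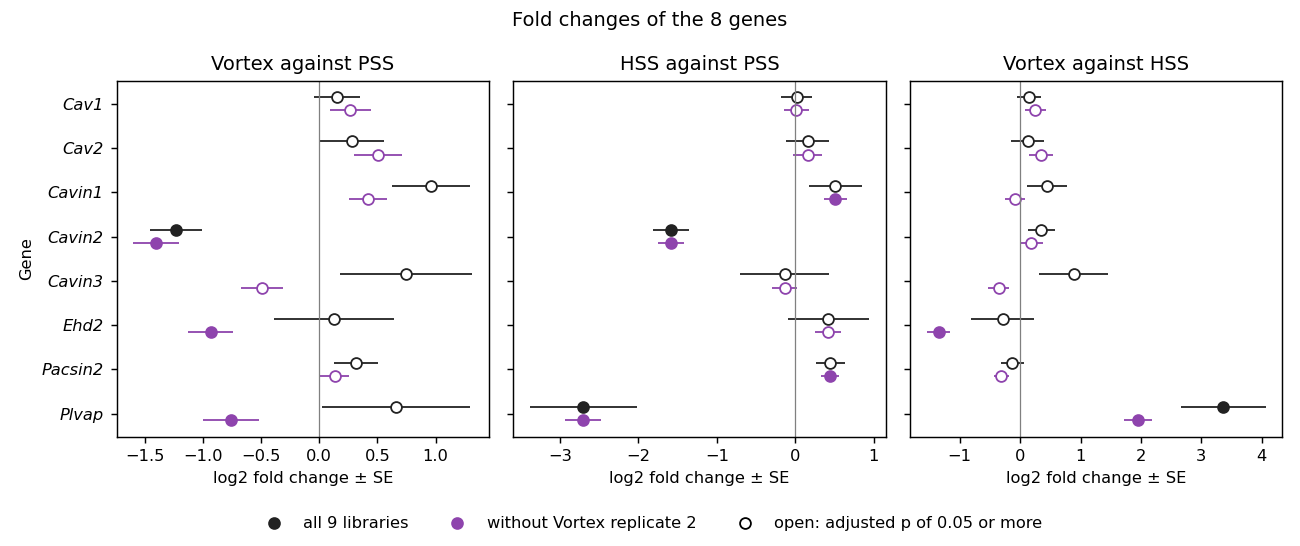
Log2 fold change with its standard error for each gene in the 3 comparisons, from edgeR with all 9 libraries (black) and without Vortex replicate 2 (purple); filled points have an adjusted p under 0.05. Cavin2 is lower than PSS in both flows and both fits, and Ehd2, Cavin3 and Plvap change side in Vortex against PSS when Vortex replicate 2 is left out.

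Among the coat proteins, Cav1 (ENSMUSG00000007655) encodes caveolin-1, without which endothelial cells form no caveolae. It had 1693, 1147 and 1274 CPM in Vortex, 1239, 1240.5 and 1251 CPM in HSS, and 1132, 1051 and 1508 CPM in PSS. The 3 groups overlap, and the widest spread is within PSS and Vortex. Its log2 fold change was 0.16 ± 0.20 (SE) for Vortex against PSS, 0.015 ± 0.20 for HSS against PSS and 0.14 ± 0.20 for Vortex against HSS (adjusted p = 0.645, 0.977 and 0.693). The 95% intervals of the log2 fold change were -0.29 to 0.60, -0.43 to 0.46 and -0.31 to 0.59, so a doubling of Cav1 lies outside all of them in this fit. Values so close to 0 changed sign without single libraries: HSS against PSS was -0.045 without PSS replicate 1, -0.092 without PSS replicate 2 and -0.012 without Vortex replicate 1. Vortex against PSS was -0.068, and Vortex against HSS -0.056, without Vortex replicate 1. With the GC trend removed and Vortex replicate 2 left out, Vortex was called higher than PSS (0.44, adjusted p = 0.026).

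Cav2 (ENSMUSG00000000058) encodes caveolin-2, the partner that joins caveolin-1 in hetero-oligomers, and lies beside Cav1 on chromosome 6. Its levels were 578, 272 and 390.1 CPM in Vortex, 375, 372 and 393 CPM in HSS, and 315, 279 and 426 CPM in PSS. Again the groups overlap. The log2 fold changes were 0.28 ± 0.27, 0.16 ± 0.27 and 0.12 ± 0.27 for Vortex against PSS, HSS against PSS and Vortex against HSS, with adjusted p of 0.536, 0.789 and 0.813. Vortex replicate 2 held the lowest Cav2 level of all 9 libraries, and with the GC trend of each library removed Vortex was called higher than PSS (1.06, adjusted p = 0.00817) and than HSS (0.73, adjusted p = 0.0315). Without Vortex replicate 1 the values were -0.078 against PSS and -0.21 against HSS.

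The 2 caveolins moved together from library to library. Pearson's r of their log2 CPM was 0.94 over the 9 libraries and 0.97 over 8 without Vortex replicate 2, a description of libraries that share groups and depth. It was the highest of the 28 pairs among the 8 genes. On the FPKM scale the Cav1 level was 2.84, 4.08 and 3.16 times that of Cav2 in Vortex, 3.20, 3.23 and 3.08 times in HSS, and 3.48, 3.65 and 3.43 times in PSS. The ratio was lower in all 3 HSS libraries than in any PSS library, by a margin smaller than the range within Vortex. Of 9485 genes that averaged 10 CPM or more, the 3 with the profile most like that of Cav1 over the 9 libraries were Stx4a (r = 0.96), a syntaxin of the plasma membrane, Cav2 and Atp6v1c1 (0.94), a subunit of the vacuolar proton pump. Over 8 libraries their values were 0.97, 0.97 and 0.96, but the 3 genes most like Cav1 were then others: Lamp2, a lysosomal membrane protein (0.98, and 0.61 over 9 libraries), Snx5, a sorting nexin (0.98 and 0.90), and Anxa5, annexin A5 (0.97 and 0.53).

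Of the coat genes, Cavin2 was the one called with all 9 libraries. Cavin2 (ENSMUSG00000045954), the cavin that helps to curve the membrane and in mice is needed for caveolae in some vascular beds, had 151, 183 and 118 CPM in Vortex, 122, 113 and 119.7 CPM in HSS, and 319.5, 296 and 448 CPM in PSS. All 6 Vortex and HSS libraries lay below the lowest PSS library. It fell by 1.58 on the log2 scale in HSS (SE 0.23, adjusted p = 0.00489) and by 1.23 in Vortex (SE 0.22, adjusted p = 0.00987). The fall in HSS had an adjusted p of at most 0.0406 under every alternative run, with values from -1.70 to -1.38. The fall in Vortex passed without each of the 9 libraries in turn but not in a fit of the Vortex and PSS libraries alone (-1.23, adjusted p = 0.0712) or with the GC trend removed (-0.86, adjusted p = 0.0897). Vortex against HSS was 0.35 ± 0.22 (adjusted p = 0.349).

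Cavin1 (ENSMUSG00000004044) encodes the core cavin, which is required for caveolae to form. It had 365, 1036 and 513 CPM in Vortex, 459.9, 466 and 476 CPM in HSS, and 347, 354 and 282 CPM in PSS. All Vortex and HSS libraries lay above the highest PSS library, the lowest of them, Vortex replicate 1, by little. Non-overlapping groups were common here: they were found for 30.0% of all genes in Vortex against PSS, 56.2% in HSS against PSS and 36.4% in Vortex against HSS. Its log2 fold change was 0.96 ± 0.33 for Vortex against PSS and 0.51 ± 0.33 for HSS against PSS (adjusted p = 0.0888 and 0.405). Without Vortex replicate 2 the value for HSS was the same with a smaller error (0.51 ± 0.15, adjusted p = 0.0272), while that for Vortex was 0.42 ± 0.16 (adjusted p = 0.0703). Vortex against PSS passed without Vortex replicate 1 (1.19, adjusted p = 0.0204) and by DESeq2's Wald test (0.93, adjusted p = 0.0488). Vortex against HSS was 0.45 ± 0.33 (adjusted p = 0.427) with all libraries and -0.090 ± 0.17 (adjusted p = 0.725) without Vortex replicate 2.

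Cavin3 (ENSMUSG00000037060), the cavin linked to protein kinase C delta, was the least abundant of the 3. It had 17.7, 108 and 24.9 CPM in Vortex, 26.3, 27.4 and 28.2 CPM in HSS, and 29.9, 27.1 and 32.9 CPM in PSS. Vortex replicate 2 lay above, and the other Vortex libraries below, all HSS and PSS libraries. The log2 fold changes of 0.75 ± 0.57 (Vortex against PSS), -0.14 ± 0.57 (HSS against PSS) and 0.88 ± 0.57 (Vortex against HSS) did not pass (adjusted p = 0.421, 0.921 and 0.36). Without Vortex replicate 2, Vortex was at -0.49 ± 0.18 against PSS and -0.35 ± 0.18 against HSS (adjusted p = 0.053 and 0.171).

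Per length, the make-up of the cavin transcripts differed between PSS and the other groups. Cavin2 made up 30.6%, 14.5% and 19.7% of the summed cavin FPKM in Vortex, 21.7%, 20.2% and 20.7% in HSS, and 47.7%, 45.7% and 59.8% in PSS. Cavin1 made up 62.9%, 69.8% and 72.7% in Vortex, 69.7%, 70.8% and 70.3% in HSS, and 44.1%, 46.6% and 32.1% in PSS. Neither share overlapped between PSS and the other groups, whereas the Cavin3 share of 6.57% to 15.7% in Vortex, 8.59% to 8.99% in HSS and 7.71% to 8.20% in PSS was spread on both sides of PSS in Vortex. These shares combine the values given above and are a description.

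**Figure D3:**
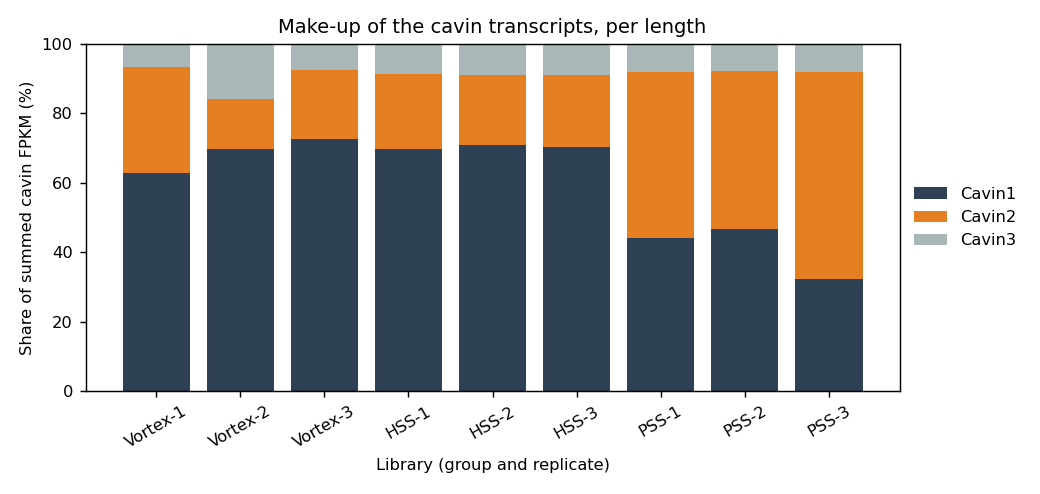
Share of each cavin in the summed FPKM of Cavin1, Cavin2 and Cavin3, in percent, for each of the 9 libraries. Cavin2 takes 45.7% to 59.8% in PSS libraries and 14.5% to 30.6% in Vortex and HSS libraries.

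The promoters of the coat genes are shown because Cavin2 was called lower than PSS in both flows and Cavin1 was not, and because the neighbouring caveolins had the highest correlation of the 28 pairs. RefSeq's windows (build GRCm38.p6, 250 bases before to 50 after a start site) matched 6 of the 8 genes, with 10 windows in all. Capitals mark matches on either strand to AGGAAG (the ETS factors, such as ERG), CACCC (the KLF factors), GGGCGG (the GC box), TGACTCA (AP-1), CCAAT (the CCAAT box) and TATAAA (the TATA box), motifs picked after the values were seen. Each sequence is given 5′ to 3′ on the strand of its gene, Cavin2 on the + strand at chr1:51288876-51289175, Cavin1 on the - strand at chr11:100970566-100970865 (the first of 2 windows), Cav1 on the + strand at chr6:17306085-17306384 (the first of 2) and Cav2 on the + strand at chr6:17280935-17281234.
Cavin2: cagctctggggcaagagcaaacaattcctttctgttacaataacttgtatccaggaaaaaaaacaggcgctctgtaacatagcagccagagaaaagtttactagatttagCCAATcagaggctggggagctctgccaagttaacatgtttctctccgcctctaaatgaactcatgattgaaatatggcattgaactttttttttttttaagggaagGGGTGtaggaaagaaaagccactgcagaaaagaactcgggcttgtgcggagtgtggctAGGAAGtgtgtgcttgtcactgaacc
Cavin1: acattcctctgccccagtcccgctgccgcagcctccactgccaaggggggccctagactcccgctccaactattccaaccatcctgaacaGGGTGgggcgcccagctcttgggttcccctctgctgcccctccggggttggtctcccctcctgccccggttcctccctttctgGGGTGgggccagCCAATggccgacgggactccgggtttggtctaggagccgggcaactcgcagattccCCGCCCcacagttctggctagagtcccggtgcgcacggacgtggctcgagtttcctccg
Cav1: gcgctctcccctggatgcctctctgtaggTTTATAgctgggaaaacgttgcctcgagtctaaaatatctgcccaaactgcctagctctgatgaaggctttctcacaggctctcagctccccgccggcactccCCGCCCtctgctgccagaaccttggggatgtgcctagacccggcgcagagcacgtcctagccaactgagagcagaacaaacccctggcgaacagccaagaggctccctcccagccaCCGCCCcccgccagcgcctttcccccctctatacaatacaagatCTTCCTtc
Cav2: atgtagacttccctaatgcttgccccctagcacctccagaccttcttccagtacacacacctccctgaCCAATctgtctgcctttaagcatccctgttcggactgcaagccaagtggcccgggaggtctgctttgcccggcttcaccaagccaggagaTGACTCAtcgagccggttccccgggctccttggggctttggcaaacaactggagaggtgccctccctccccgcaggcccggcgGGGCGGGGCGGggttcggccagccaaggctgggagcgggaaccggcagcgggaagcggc

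The Cavin2 window holds 43.3% G and C, against 67.0% for Cavin1, 59.3% for Cav1 and 64.3% for Cav2, where the median of 32851 RefSeq windows of the same length is 52.7%. Cavin2 is the one of these 4 with no GC box, and it has 1 match to the ETS, 1 to the KLF and 1 to the CCAAT box motif. Cav1 has 2 GC boxes, 1 AGGAAG and 1 TATAAA, and Cav2 has 2 GC boxes that share 1 base, 1 TGACTCA and 1 CCAAT. Cavin1 has 2 matches to CACCC, 1 GC box and 1 CCAAT. Of the 10 windows of these 6 genes, 2 have the ETS, 5 the KLF, 6 the GC box, 2 the AP-1, 7 the CCAAT box and 1 the TATA box motif, and over all windows these motifs occur in 35.4%, 57.5%, 35.7%, 5.2%, 37.4% and 13.6%. The 2 Cavin1 windows are almost the same bases and share their matches, and Pacsin2 has 3 windows, so the 10 are not independent. Counted by gene, 2, 4, 5, 2, 5 and 1 of the 6 have these motifs in at least 1 window. A match is only a run of letters, and binding was not measured.

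Of the proteins at the neck, Ehd2 (ENSMUSG00000074364) encodes an ATPase that forms rings there and holds caveolae at the surface. It had 151, 844 and 245 CPM in Vortex, 493, 503 and 521 CPM in HSS, and 389.9, 403 and 339 CPM in PSS. HSS libraries lay above all PSS libraries. The Vortex libraries fell on both sides, with replicates 1 and 3 below every HSS and PSS library and replicate 2 above them. With all libraries no comparison passed, at 0.13 ± 0.52 for Vortex against PSS, 0.42 ± 0.52 for HSS against PSS and -0.29 ± 0.52 for Vortex against HSS (adjusted p = 0.893, 0.691 and 0.759). Without Vortex replicate 2, Vortex was lower than PSS by a log2 fold change of -0.93 ± 0.19 and lower than HSS by -1.35 ± 0.20 (adjusted p = 0.00459 and 0.00157). HSS against PSS passed when only those 6 libraries were fitted (0.39, adjusted p = 0.0112). Vortex against HSS was 0.075 without Vortex replicate 1.

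Pacsin2 (ENSMUSG00000016664) encodes an F-BAR protein that bends the membrane at the neck. It had 139, 207 and 157 CPM in Vortex, 182, 189 and 180.4 CPM in HSS, and 138, 145 and 122 CPM in PSS. All HSS libraries lay above all PSS libraries, and Vortex overlapped both. The log2 fold change for HSS against PSS was 0.45 ± 0.19 (adjusted p = 0.189) with all libraries and 0.44 ± 0.11 (adjusted p = 0.0146) without Vortex replicate 2, and the fit of only the HSS and PSS libraries called it too (0.42, adjusted p = 0.00698). Vortex stood at 0.32 ± 0.19 against PSS and -0.13 ± 0.19 against HSS (adjusted p = 0.296 and 0.699).

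Plvap (ENSMUSG00000034845), the diaphragm protein, had the widest range of the 8 genes. It had 115, 1016 and 224 CPM in Vortex, 44.9, 42.4 and 44.3 CPM in HSS, and 295, 316 and 246 CPM in PSS. HSS was below every library of the other groups, and Vortex replicates 1 and 3 lay between HSS and PSS. Plvap fell by 2.70 on the log2 scale in HSS against PSS (SE 0.68, adjusted p = 0.0434) and was higher in Vortex than in HSS (3.36 ± 0.70, adjusted p = 0.027), while Vortex against PSS was at 0.66 ± 0.64 (adjusted p = 0.535). Without Vortex replicate 2 it was lower in HSS than in PSS (-2.70 ± 0.23, adjusted p = 2.07e-05), lower in Vortex than in PSS (-0.76 ± 0.24, adjusted p = 0.0343) and higher in Vortex than in HSS (1.95 ± 0.24, adjusted p = 0.000678).

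The 2 calls with all libraries were close to the threshold. HSS against PSS had an adjusted p of 0.128, 0.112 and 0.116 without PSS replicate 1, 2 and 3, of 0.157, 0.163 and 0.164 without HSS replicate 1, 2 and 3, and of 0.0505 without Vortex replicate 3, with log2 fold changes between -2.80 and -2.63. Vortex against HSS passed neither without PSS replicate 1 or 2 (adjusted p = 0.06 and 0.0522), nor without HSS replicate 1, 2 or 3 (0.131, 0.129 and 0.134), nor in a fit of those 6 libraries (0.0987). Both calls also ended with no filter on low counts and in a fit with replicate number as a block. Plvap followed the sum of the endothelial markers. The library with the highest sum (6386 CPM, Vortex replicate 2) had the most Plvap and the HSS libraries (378 to 383 CPM) the least. PSS (2292 to 2913 CPM) was above the other Vortex libraries (759 and 1181 CPM) in both measures. Single markers could differ from this order. Pecam1 had 1116 counts in Vortex replicate 3 and 254 to 300 in PSS. Egfl7 had 99 counts in Vortex replicate 1 and 137 to 171 in HSS. The genes most like Plvap over the 9 libraries were Stab1, a scavenger receptor of sinusoidal endothelium (r = 0.998), Dysf, the membrane repair protein dysferlin (0.995), and Mdfi, an inhibitor of myogenic factors (0.994), with 0.999, 0.995 and 0.990 over the 8 libraries without Vortex replicate 2, where S1pr1, a sphingosine 1-phosphate receptor (0.998, and 0.991 over 9 libraries), replaced Mdfi among the top 3. On the FPKM scale the Plvap level was 0.117, 1.54 and 0.305 times that of Cav1 in Vortex, 0.0628, 0.0593 and 0.0614 times in HSS, and 0.451, 0.521 and 0.283 times in PSS.

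Vortex replicate 2 differed from the other 2 Vortex libraries in a way that differed between the 8 genes. Relative to the mean log2 CPM of Vortex replicates 1 and 3 it had 6.34 times the Plvap, 5.14 times the Cavin3, 4.38 times the Ehd2 and 2.39 times the Cavin1 level. It had 1.40 and 1.37 times the Pacsin2 and Cavin2 level, and 0.781 and 0.574 times the Cav1 and Cav2 level. The longest transcripts of the first 4 genes hold 60.6%, 56.4%, 54.5% and 57.3% G and C, those of Pacsin2 and Cavin2 52.7% and 44.4%, and those of Cav1 and Cav2 42.6% and 37.5%. In all genes the median difference was -1.11 in the eighth of lowest GC content and 0.62 in the eighth of highest, on the log2 scale, where Plvap was at 2.66, Cavin3 at 2.36 and Ehd2 at 2.13. What part of each gene's difference comes with GC content was not tested beyond the GC-corrected fits given above and in the closing section.

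**Figure D4:**
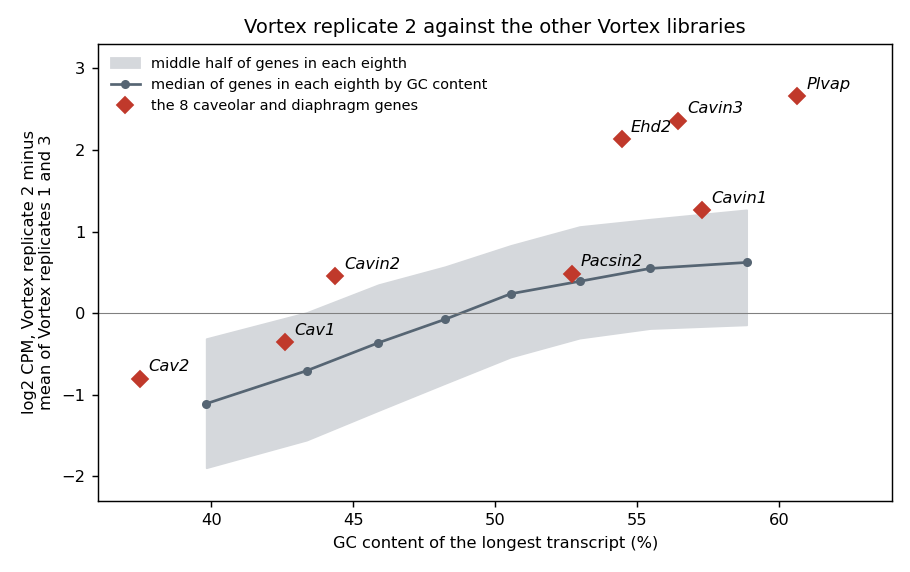
Log2 CPM of Vortex replicate 2 minus the mean of Vortex replicates 1 and 3, against the GC content of the longest transcript in percent. Grey points are medians and the band runs between the quartiles of genes in eighths by GC content, and red diamonds are the 8 genes, of which Plvap (2.66) is the highest and Cav2 (-0.80) the lowest.

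Close relatives of the 8 genes were read from a list of 7 paralogs, of which 6 were tested. Cav3, the muscle caveolin, had 2 counts in all 9 libraries together and was not tested. In Vortex against PSS 2 rose and 0 fell by edgeR (3 higher and 0 lower at an unadjusted p under 0.05, and the same by DESeq2), with a median log2 fold change of 0.82, where 13.4% of all genes were called. In HSS against PSS 1 rose and 0 fell (1 and 2 unadjusted and by DESeq2, median 0.17, with 7.87% of all genes called). In Vortex against HSS 0 passed by edgeR (5 higher and 0 lower unadjusted, 3 and 0 by DESeq2, median 0.80, with 7.04% of all genes called). Here and for the lists below, the shares of all genes are those of edgeR's adjusted calls. They are no background for the unadjusted and DESeq2 counts, and DESeq2 called more genes than edgeR in each comparison. Without Vortex replicate 2, where 36.3%, 29.1% and 23.9% of all genes were called in these comparisons, 3 paralogs were higher and 0 lower in Vortex against PSS, 1 higher and 2 lower in HSS against PSS, and 4 higher and 0 lower in Vortex against HSS. The 4 were Pacsin3 (0.87 ± 0.19), Ehd4 (0.52 ± 0.13), Ehd3 (0.68 ± 0.19) and the muscle cavin Cavin4 (2.47 ± 0.63). Cavin4 was close to the floor, with at most 30 counts in any library and 0.168 to 0.210 CPM in HSS.

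The paralog called in both flows was Ehd1, an EHD ATPase of endosomal recycling. It had 306, 503 and 358 CPM in Vortex, 278, 286 and 279 CPM in HSS, and 164, 171 and 136 CPM in PSS, with PSS below all other libraries. Its log2 fold change was 1.31 ± 0.21 for Vortex against PSS (adjusted p = 0.00668), which passed without each library in turn. For HSS against PSS it was 0.84 ± 0.21 (adjusted p = 0.0417), a call that ended without PSS replicate 1, 2 or 3 (0.145, 0.0992 and 0.137), HSS replicate 1, 2 or 3 (0.147, 0.154 and 0.151) or Vortex replicate 3 (0.0616). Pacsin3, a PACSIN best known from muscle, had 50.5, 29.5 and 32.1 CPM in Vortex and 19.3, 16.5 and 18.0 CPM in PSS (1.06 ± 0.23, adjusted p = 0.0191), and its call ended without PSS replicate 1, 2 or 3 (0.0757, 0.0782 and 0.0611).

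Of 18 partners and regulators of caveolae, 17 were tested. Gpihbp1, which carries lipoprotein lipase across capillaries, had 174 counts in all, 141 of them in Vortex replicate 2. In Vortex against PSS 3 rose and 0 fell (4 and 0 unadjusted, 3 and 0 by DESeq2, median 0.42, with 13.4% of all genes called), in HSS against PSS 2 rose and 2 fell (5 and 3 unadjusted, 3 and 2 by DESeq2, median 0.11, with 7.87% of all genes called), and in Vortex against HSS 3 rose and 2 fell (4 and 2 unadjusted, 3 and 2 by DESeq2, median 0.20, with 7.04% of all genes called). When Vortex replicate 2 was left out, the counts were 6 higher and 3 lower for Vortex against PSS, 7 and 3 for HSS against PSS, and 5 and 2 for Vortex against HSS. In that fit 36.3%, 29.1% and 23.9% of all genes were called in these comparisons. The 3 then lower in Vortex than in PSS were Dnm3 (-3.30 ± 0.31), Nos3 (-0.88 ± 0.24) and Tgfbr1, a receptor for TGF-beta (-0.42 ± 0.11). Src, the kinase that phosphorylates caveolin-1, was called higher in both flows: 148, 111 and 184 CPM in Vortex, 195, 204 and 199 CPM in HSS, and 75.4, 81.0 and 57.0 CPM in PSS. Its log2 fold change was 1.05 ± 0.22 for Vortex (adjusted p = 0.0165, but 0.0709 when PSS replicate 1 and 0.0579 when PSS replicate 3 was left out) and 1.49 ± 0.23 for HSS (adjusted p = 0.00615, passing without each library in turn).

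Scarb1, a receptor for high-density lipoprotein found in caveolae, had 159.8, 150.4 and 129 CPM in Vortex, 69.7, 73.0 and 73.8 CPM in HSS, and 51.8, 61.2 and 46.7 CPM in PSS. It was higher in Vortex than in PSS (1.46 ± 0.18, adjusted p = 0.00319, passing without each library) and than in HSS (1.02 ± 0.18, adjusted p = 0.0157, and 0.109, 0.0996 and 0.103 without HSS replicate 1, 2 and 3). Dnm2, the dynamin that cuts vesicles from the membrane, was the other gene higher in Vortex than in PSS (0.92 ± 0.18, adjusted p = 0.0131, and 0.0661 without PSS replicate 1). Ptch1, the Hedgehog receptor, had 42.9, 41.4 and 49.5 CPM in Vortex, 89.4, 89.5 and 92.1 CPM in HSS, and 35.5, 37.1 and 27.2 CPM in PSS, and was higher in HSS than in PSS (1.44 ± 0.18, adjusted p = 0.00311, passing without each library). The genes lower in HSS were Nos3, the nitric oxide synthase held by caveolin-1, and Dnm3, another dynamin (-3.26 ± 0.76 and -3.81 ± 0.93). Leaving out any single library of PSS or HSS ended both calls (adjusted p = 0.0332 and 0.0389), at up to 0.145 and 0.162. In Vortex against HSS the other calls were Fyn, a Src family kinase (1.15 ± 0.23), Nos3 (3.99 ± 0.78), Ptch1 (-1.02 ± 0.18) and Prkca, protein kinase C alpha (-1.25 ± 0.29). Nos3 had 24.2, 233 and 40.9 CPM in Vortex and 6.04, 7.62 and 5.16 CPM in HSS, and its log2 fold change was 2.38 ± 0.24 without Vortex replicate 2. The adjusted p-values of Fyn, Nos3, Ptch1 and Prkca of 0.0221, 0.0228, 0.0165 and 0.0353 were 0.098 to 0.141 without any 1 HSS library. Those of Fyn, Nos3 and Prkca were 0.0577, 0.0541 and 0.0749 without PSS replicate 1, and that of Prkca 0.0617 and 0.0508 without PSS replicate 2 and Vortex replicate 3.

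Among 15 genes of other membrane rafts and of vesicle transport, all tested, 2 rose and 0 fell in Vortex against PSS (4 and 0 unadjusted, 3 and 0 by DESeq2, median 0.37), a share near the 13.4% over all genes. In HSS against PSS 2 rose and 0 fell (3 and 0 unadjusted, 2 and 0 by DESeq2, median 0.096, with 7.87% of all genes called), and in Vortex against HSS 1 rose and 0 fell (1 and 0 unadjusted and by DESeq2, median 0.080, with 7.04% of all genes called). The counts without Vortex replicate 2 were 3 higher and 1 lower, 3 and 0, and 1 and 1 in the same order of comparisons. In that fit 36.3%, 29.1% and 23.9% of all genes were called. The gene then lower in Vortex than in PSS and in HSS was Nsf, the ATPase that takes SNARE complexes apart (-0.45 ± 0.12 and -0.39 ± 0.12). Stom, the raft protein stomatin, had 381, 238 and 307 CPM in Vortex, 102, 106 and 113 CPM in HSS, and 75.9, 76.5 and 77.5 CPM in PSS. Vortex was above both other groups in every library (2.01 ± 0.20 against PSS, adjusted p = 0.0022, passing without each library, and 1.52 ± 0.20 against HSS, adjusted p = 0.00825, and 0.0777, 0.0758 and 0.0781 without HSS replicate 1, 2 and 3). The flotillins, which mark rafts that hold no caveolin, were called higher in HSS, Flot1 at 0.87 ± 0.19 and Flot2 at 0.84 ± 0.22 (adjusted p = 0.0256 and 0.0465). Flot1 was also higher in Vortex than in PSS (0.68 ± 0.19, adjusted p = 0.044). Leaving out any single library of PSS or HSS ended the HSS calls (0.0755 to 0.12 for Flot1 and 0.125 to 0.17 for Flot2), and that of Flot2 also ended without Vortex replicate 3 (0.0504). The Vortex call of Flot1 ended whichever library other than Vortex replicate 2 was left out (0.075 to 0.154).

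**Figure D5:**
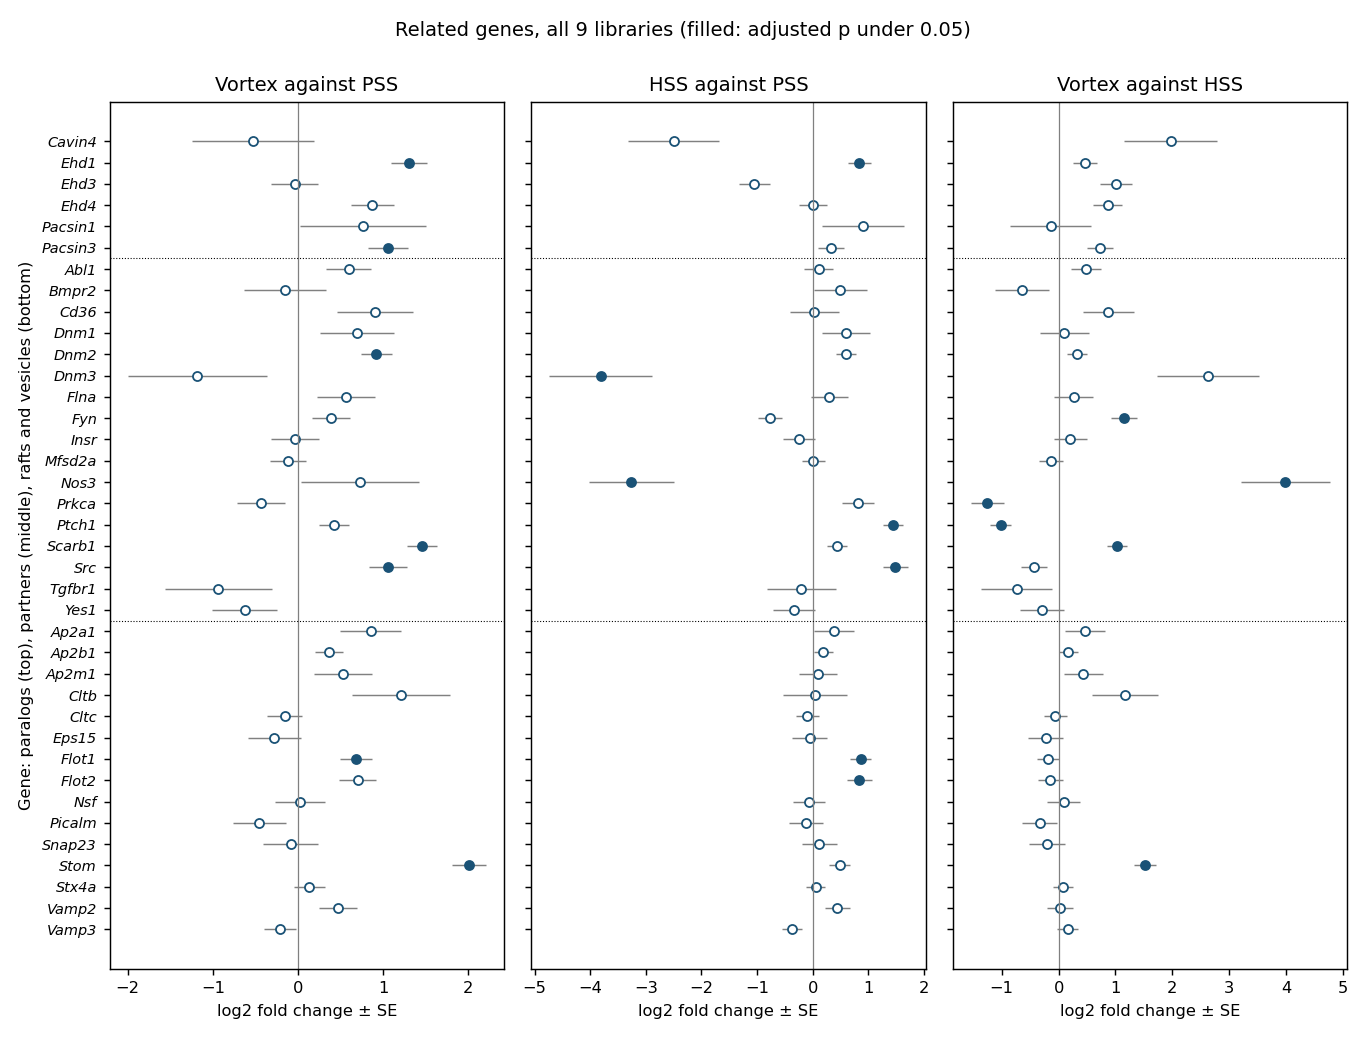
Log2 fold change with its standard error for the 6 paralogs, 17 partners and 15 raft and vesicle genes tested, in the 3 comparisons with all 9 libraries; filled points have an adjusted p under 0.05. Ehd1, Src and Flot1 are filled in both comparisons with PSS, and Stom and Scarb1 in both comparisons of Vortex.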

How the data were processed

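Polyadenylated RNA of 9 libraries was measured. HISAT2 and HTSeq 0.13.5 were used on GRCm39, per the submitters' processing notes. Whether counting used strand is not stated, so reads of Plvap and its antisense neighbour Gtpbp3 (249 to 621 counts per library) cannot be told apart where they overlap. The same holds for other antisense RNAs at these genes, which had at most 9 counts. Pacsin2 overlaps Gm5417, a processed pseudogene on the same strand with 25 to 175 counts per library, which strand could not tell apart. The authors deposited whole-number counts per gene and FPKM values, scaled by gene length and column total.

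Counts were analysed with edgeR 4.0.16 in R 4.3.3: filterByExpr over the 3 groups, TMM scaling, and a robust quasi-likelihood fit with 1 mean per group over all 9 libraries. A gene was called at an adjusted p under 0.05. CPM uses TMM-scaled totals, and log2 CPM a prior count of 2. A standard error is the log2 fold change over the square root of its F. The smallest p of an exact permutation test of 3 against 3 libraries is 0.1. Within groups, libraries differed beyond sampling noise (chi-square per degree of freedom from 2.04 to 371), so none was treated as a repeat deposit of another, which does not show that they are separate cultures. Alternatives used DESeq2 1.42.0, limma 3.58.1 with a pseudocount of 1, and a GC correction (lowess span 0.3, GC content of the longest transcript in GENCODE M21 by gene identifier, for 98.5% of tested genes). All 8 genes were named, and from each of 3 related lists up to 3 tested genes with the smallest p per comparison. Dnm3, Prkca, Gpihbp1 and the genes named from the fit without Vortex replicate 2 were named in addition, after their values were seen. Promoter windows are RefSeq's on GRCm38.p6, and no coordinates were carried between builds. The genes, lists and markers were chosen with earlier results of these data known.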

Additional observations from a re-analysis of the deposited data

How the results depend on the processing

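The 8 genes had 280 to 31833 counts per library. Among recomputed fold changes of the 8 genes, 351 kept their direction and their side of the threshold, 19 no longer passed, 18 newly passed and 36 changed sign; the cause was not tested. Counts below are given for HSS against PSS, Vortex against PSS and Vortex against HSS in turn. With all libraries they were 1242, 2107 and 1111 over all genes and 2, 1 and 1 among the 8. Leaving out 1 library gave 285 to 4730, 519 to 5888 and 25 to 3887 over all genes and 1 to 4, 1 to 3 and 0 to 2 among the 8. The fit of the compared libraries alone called 6233, 74 and 66 genes and 5, 0 and 0 of the 8, and DESeq2's Wald test 2456, 3489 and 2700 genes, with 2 of the 8 for Vortex against PSS. With no filter on low counts 713 genes were called for Vortex against HSS, and 1 of the 8 for HSS against PSS and 0 for Vortex against HSS. With the GC trend removed 2 of the 8 were called for Vortex against HSS. Added after the data were seen, the GC correction without Vortex replicate 2 called 4773, 5945 and 4201 genes, with 6 and 4 of the 8 in the Vortex comparisons, and the fits of compared libraries without it 3664 and 4201 genes, with 2 and 3 of the 8.

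Replicate numbers gave no clear sign of pairing. Deviations from group means correlated at -0.12 to 0.12 between libraries of the same number and -0.16 to 0.12 otherwise. The best match was the own number in 9 of 18 cases, each a choice among 3 libraries. With 3 libraries per group these values cannot show whether the numbers pair the samples. With the replicate block 772, 1258 and 357 genes were called, and 1 and 0 of the 8 for HSS against PSS and Vortex against HSS. Ehd2 was at -0.14 for Vortex against PSS with the replicate block.

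Other values changed sign too. Cav1 in HSS against PSS was at -0.0055 with DESeq2 size factors and by DESeq2, -0.021 with no filter, -0.0014 by limma and -0.013 in the fit of compared libraries. By limma, Vortex against PSS gave Cav1 -0.017, Ehd2 -0.42 and Plvap -0.11, and Vortex against HSS gave Cav1 -0.016 and Cav2 -0.081. With the GC trend removed, Vortex against PSS gave Ehd2 -0.32 and Plvap -0.013. With the GC correction and without Vortex replicate 2 together, Vortex against PSS gave Cavin3 -0.72, Ehd2 -1.08 and Plvap -0.96, and Vortex against HSS gave Cavin1 -0.12 and Cavin3 -0.38. The compared libraries without it gave -0.49, -0.93, -0.75, -0.089 and -0.35 for the same 5 values. Leaving out 1 library at a time, Vortex against PSS ranged from -0.068 to 0.33 for Cav1, -0.078 to 0.51 for Cav2, -0.49 to 1.09 for Cavin3, -0.93 to 0.47 for Ehd2 and -0.76 to 1.06 for Plvap. HSS against PSS ranged from -0.092 to 0.19 for Cav1. Vortex against HSS ranged from -0.056 to 0.25 for Cav1, -0.21 to 0.35 for Cav2, -0.090 to 0.70 for Cavin1, -0.35 to 1.25 for Cavin3 and -1.35 to 0.075 for Ehd2.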
